A study of Mus musculus with 16 samples.

Results

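The 34 genes described here encode the enzymes of cholesterol synthesis, the SREBP regulators that control them, sterol transport and efflux proteins with their LXR receptors, and the enzymes of fatty acid synthesis. They were chosen by symbol from the 25611 entries of a gene count table of the mouse thyroid gland, and all 34 were found and passed the filter on low counts that left 16630 genes for testing. They comprise 7 genes of the mevalonate pathway, 11 from squalene to cholesterol, 4 SREBP regulators, 5 of sterol transport and the LXR receptors, and 7 of fatty acid synthesis. RNA-Seq was carried out on whole thyroid glands of 16 C57BL/6 mice, 4 in each of 4 groups, which the labels give as 1 month old and weaned at 3 weeks. WT(ND) and WT(LID) mice were wild type and were fed a normal diet (ND, NIH31) or a low iodine diet (LID, TD.95125), which leaves the gland short of the iodine it needs for hormone. Mice of the *Glis3*-Pax8Cre(ND) and the *Glis3*-Pax8Cre(LID) groups carried Glis3<tm2Amj> and Pax8<tm1.1(cre)Mbu>, with the background prefix B6;129 in their genotype label, and were fed the same diets. In these mice the Cre recombinase made under *Pax8* control removes exon 5 of *Glis3*, so the deletion is limited to cells that express *Pax8*, while the whole gland with all its cell types was sequenced. The comparisons ask how lipid synthesis genes responded to low iodine, how they differed without GLIS3, a zinc finger transcription factor of follicular cells, and whether the response to diet depended on genotype. No group carried the Cre allele alone. Between genotypes, the loss of GLIS3, the Cre allele at *Pax8* and any difference in background therefore cannot be told apart.

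Cells make cholesterol from acetyl-CoA through mevalonate and squalene, and fatty acids from the same precursor through malonyl-CoA. SREBP2, encoded by *Srebf2*, mainly drives the cholesterol genes, and SREBP1, encoded by *Srebf1*, mainly drives the fatty acid genes. Both factors are made as membrane proteins of the endoplasmic reticulum, SCAP escorts them to the Golgi where they are cut and released, and INSIG proteins hold SCAP back when sterols are plentiful. The LXR receptors respond to oxysterols and raise sterol efflux genes and *Srebf1*. In a tissue with fat around it, as the thyroid has, the fatty acid enzymes are also strongly expressed in adipocytes.

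Between 13892352 and 461077969 counts fell on genes per mouse, and the 34 genes took 0.376% to 1.64% of them. Values are CPM, counts scaled to a TMM-corrected library size. A count of 0 would allow up to 3 counts, which is 0.00651 to 0.216 CPM, and such limits cover counting error only. In whole glands, fewer cells of a type and less RNA per cell cannot be told apart. The p-values set a difference between group means against the spread between mice within groups. In the main fit that spread was estimated over all 4 groups together. The 8 follicular markers were present in all mice. *Tg* took 19.6% to 29.3% of counts in WT mice and 7.87% to 18.7% in *Glis3*-Pax8Cre mice. Between genotypes the calls of the 8 markers went both ways, with 2 higher and 3 lower on ND and 3 higher and 3 lower on LID. Their part in the results was not tested. *Glis3* itself, counted over the whole gene, was at 45.2 to 85.8 CPM in WT(ND), 125 to 174 in WT(LID), 85.8 to 105 in *Glis3*-Pax8Cre(ND) and 119.5 to 204 in *Glis3*-Pax8Cre(LID), so the count over the whole gene does not check the deletion of a single exon. *Glis3*-Pax8Cre(ND) replicate 4 stood apart by thymocyte markers, with a sum of 2214 CPM over 6 genes against at most 256 CPM in any other mouse. WT(ND) replicates 2 and 4 stood apart by adipocyte markers, with sums over 7 genes of 1277 and 1342 CPM against at most 1076 CPM in any other mouse.

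Enzymes of fatty acid synthesis headed the 34 genes on a scale of CPM per kilobase of exon, which allows levels to be compared between genes. *Scd1*, a desaturase that makes monounsaturated fatty acids, had the highest mean level per kilobase in all 4 groups, at 1195 ± 537 (SD, n = 4) in WT(ND), 324 ± 103 in WT(LID), 512 ± 88.6 in *Glis3*-Pax8Cre(ND) and 337 ± 82.2 in *Glis3*-Pax8Cre(LID). *Scd2*, a second desaturase gene, ranked 4 in WT(ND) and 2 in the other groups. Its level per kilobase in *Glis3*-Pax8Cre(LID), 274 ± 37.2, lay within the SD of *Scd1* in the same mice. *Srebf1* ranked from 3 to 7, far above *Srebf2*, which ranked from 9 to 11. *Srebf1* reached 113 ± 16 CPM per kilobase in *Glis3*-Pax8Cre(LID) against 20.2 ± 2.75 for *Srebf2*. *Scap* ranked 18 in WT(ND) at 8.06 ± 0.487 and 8 in *Glis3*-Pax8Cre(LID) at 35.4 ± 5.29. Cholesterol enzymes lay lower. *Idi1*, *Hsd17b7*, *Lss* and *Dhcr7* ranked from 30 to 34 in each group, with means from 1.09 to 2.33 CPM per kilobase. With the length of the longest transcript in place of the exon union, *Scd1* was again first and *Srebf1* ranked from 3 to 7.

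**Figure D1:**
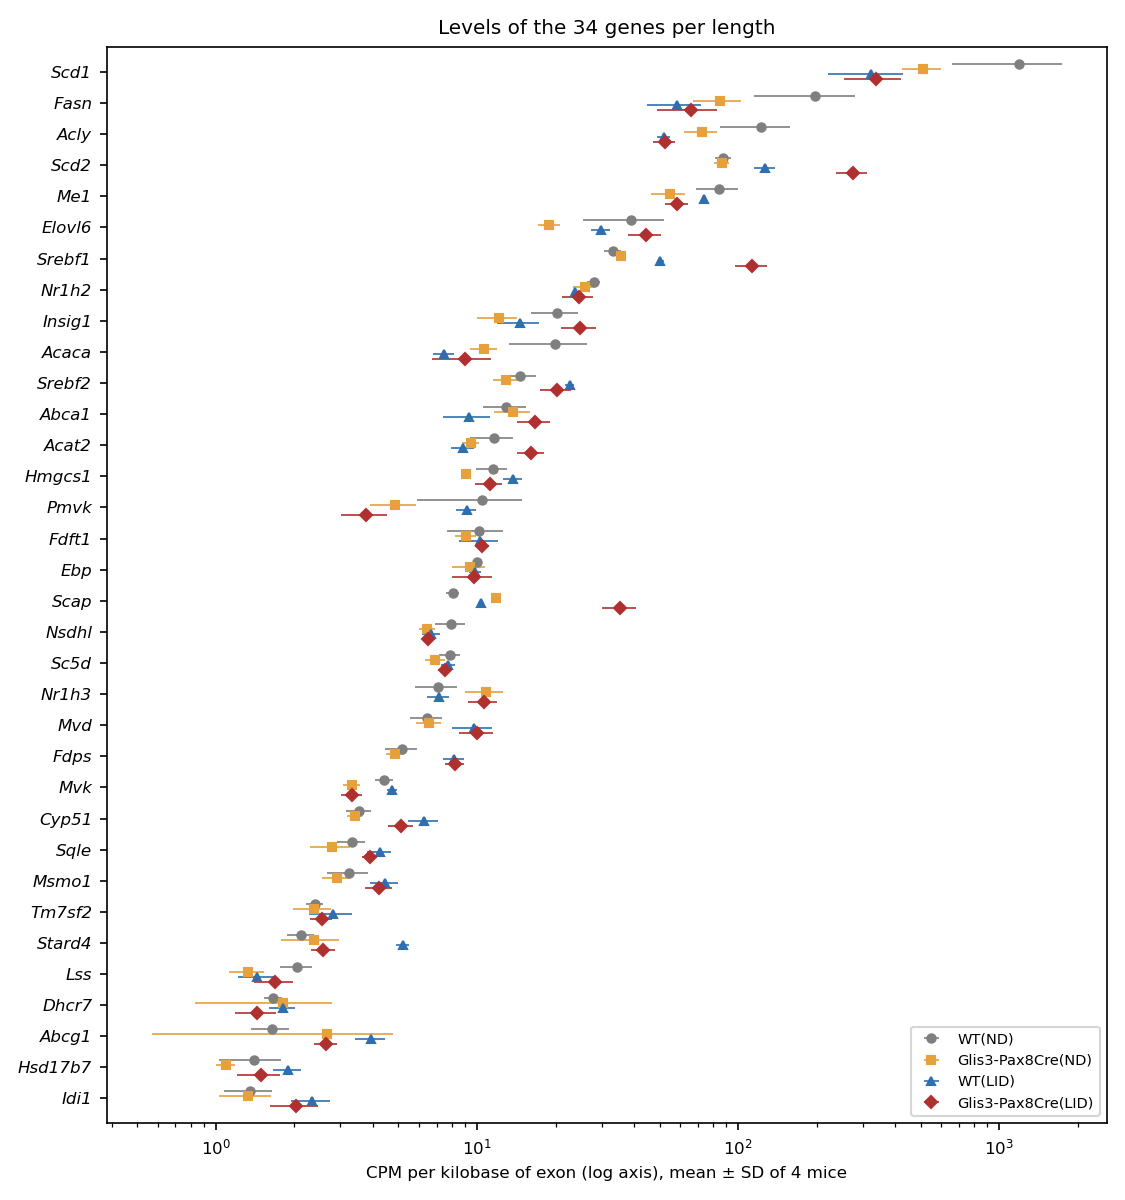
Mean level of each of the 34 genes in CPM per kilobase of exon (horizontal log axis) in the 4 groups, with the SD of 4 mice as bars. *Scd1* is at the top in all groups, and *Scd2*, *Srebf1* and *Scap* stand out in *Glis3*-Pax8Cre(LID).

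Promoter sequences from RefSeq (build GRCm38.p6, 250 bases before to 50 bases after the gene start) were found for 27 of the 34 genes. Of these genes, 20 held CCAAT, the letters bound by NF-Y, on either strand, which is 74.1% against 41.1% of 27025 genes in the same table. TCACNCCAC, a common form of the sterol regulatory element that SREBP binds, was in the promoter of 1 gene, *Hmgcs1*, against 1.44% of all genes. TGGGGGGT, the core of a GLIS site, was in 0 of 27 against 1.79% of all genes. A match is a description of letters and not a bound site, and both strands were searched. Of 42 matches, 1 pair overlapped, in *Fasn*. The 150 bases before the start are shown, 5′ to 3′ with matches in capitals, for *Hmgcs1*, which alone held the sterol element, for *Mvd*, *Idi1* and *Cyp51*, which rose with LID in both genotypes, and for *Scap*, which held none of the 3 motifs. *Hmgcs1* lies at chr13:119690201-119690350, plus strand, *Mvd* at chr8:122443423-122443572, minus strand, *Idi1* at chr13:8885456-8885605, plus strand, *Cyp51* at chr5:4104698-4104847, minus strand and *Scap* at chr9:110333138-110333287, plus strand.
Hmgcs1: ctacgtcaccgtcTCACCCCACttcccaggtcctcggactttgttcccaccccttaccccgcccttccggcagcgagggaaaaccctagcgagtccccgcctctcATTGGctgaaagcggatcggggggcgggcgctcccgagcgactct
Mvd: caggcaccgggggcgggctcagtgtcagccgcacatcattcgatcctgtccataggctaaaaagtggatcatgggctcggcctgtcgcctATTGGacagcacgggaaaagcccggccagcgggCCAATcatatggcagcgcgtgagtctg
Idi1: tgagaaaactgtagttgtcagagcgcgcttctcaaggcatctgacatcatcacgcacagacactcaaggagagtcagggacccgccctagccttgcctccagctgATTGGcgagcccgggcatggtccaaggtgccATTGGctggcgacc
Cyp51: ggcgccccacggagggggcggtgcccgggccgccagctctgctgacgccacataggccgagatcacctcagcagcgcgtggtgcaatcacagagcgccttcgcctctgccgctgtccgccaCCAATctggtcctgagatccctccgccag
Scap: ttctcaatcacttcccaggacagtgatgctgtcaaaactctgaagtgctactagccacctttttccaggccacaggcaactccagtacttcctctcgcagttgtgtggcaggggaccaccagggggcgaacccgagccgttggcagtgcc
In *Hmgcs1* the sterol element began 137 bases before the start and a CCAAT match on the other strand 45 bases before it. The *Mvd*, *Idi1* and *Cyp51* stretches held 2, 2 and 1 matches of CCAAT, the nearest of them 14 to 29 bases before the start.

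With LID, 12 of the 34 genes rose and 9 fell in WT glands, whereas in *Glis3*-Pax8Cre glands 14 rose and 1 fell. Over all genes tested, 20.9% were called higher and 20.8% lower in WT(LID) against WT(ND), and 13.1% higher and 12.3% lower in *Glis3*-Pax8Cre(LID) against *Glis3*-Pax8Cre(ND). Calls were made at an adjusted p under 0.05 in the quasi-likelihood test of edgeR, adjusted by Benjamini-Hochberg over the 16630 genes. At this threshold the shares of the 34 genes in WT were above the background in the upward direction and near it in the downward direction, and in *Glis3*-Pax8Cre they were above it upward and below it downward. Without overlap between the groups of 4 mice were 10 higher and 6 lower genes in WT, against 23.7% and 23.3% of all genes, and 13 higher and 2 lower genes in *Glis3*-Pax8Cre, against 11.8% and 10.2%. The median log2 fold change of the 34 genes was 0.061 in WT and 0.24 in *Glis3*-Pax8Cre, and that of all genes was -0.028 and -0.034. Scaling by library size alone gave 9 higher and 12 lower genes in WT, where 2434 of the 16630 genes were called higher and 5203 lower. Of the genes that rose, 10 were shared, which is 10 of the 12 in WT and 10 of the 14 in *Glis3*-Pax8Cre. They were *Srebf1*, *Srebf2*, *Scap*, *Mvd*, *Idi1*, *Fdps*, *Sqle*, *Cyp51*, *Msmo1* and *Scd2*. Markers of the parathyroid, which lies against the gland, moved with diet in both genotypes. Their sum over 4 genes was 6886 to 12570 CPM in WT(ND), 1674 to 3734 in WT(LID), 5622 to 8780 in *Glis3*-Pax8Cre(ND) and 366 to 3501 in *Glis3*-Pax8Cre(LID), 4 of 4 were called lower with LID in each genotype, and their part in these results was not tested.

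Between genotypes, 8 of the 34 genes were higher and 4 lower in *Glis3*-Pax8Cre(LID) than in WT, where 14.9% of all genes were called higher and 15.4% lower. On ND, 2 were higher and 12 lower in *Glis3*-Pax8Cre(ND) than in WT(ND), where 10.3% of all genes were called higher and 9.25% lower. Without overlap on LID were 8 higher and 5 lower genes, against 17.7% and 17.9% of all genes. On ND they were 2 higher and 12 lower, against 9.58% and 9.96%. The medians of the 34 genes were 0.0011 on LID and -0.17 on ND, and those of all genes 0.012 and 0.021. Without WT(ND) replicates 2 and 4, a choice made after seeing the data, 1 gene was called lower on ND, *Elovl6*, and 1 higher, *Scap*, while over all genes the calls on ND fell to 2.82% lower and 3.01% higher. The interaction of genotype and diet tests whether the response to LID differed between genotypes. It was called above 0 for 10 of the 34 genes and below 0 for 1, where 4.43% of all genes were called above and 7.41% below. Its median was 0.14 in the 34 genes and -0.012 in all genes. Without the same 2 mice, 6 were called above 0, against 1.92% of all genes. With a score of adipocyte markers in the fit the counts were 7 higher and 2 lower with LID in WT, against 13% and 9.67% of all genes, 0 lower on ND, against 2.34%, and 3 above 0 in the interaction, against 0.71%. With a macrophage score 0 were called on ND in either direction, where 18 of 16630 genes were called higher and 3 lower, so that this count says nothing about the 34 genes.

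**Figure D2:**
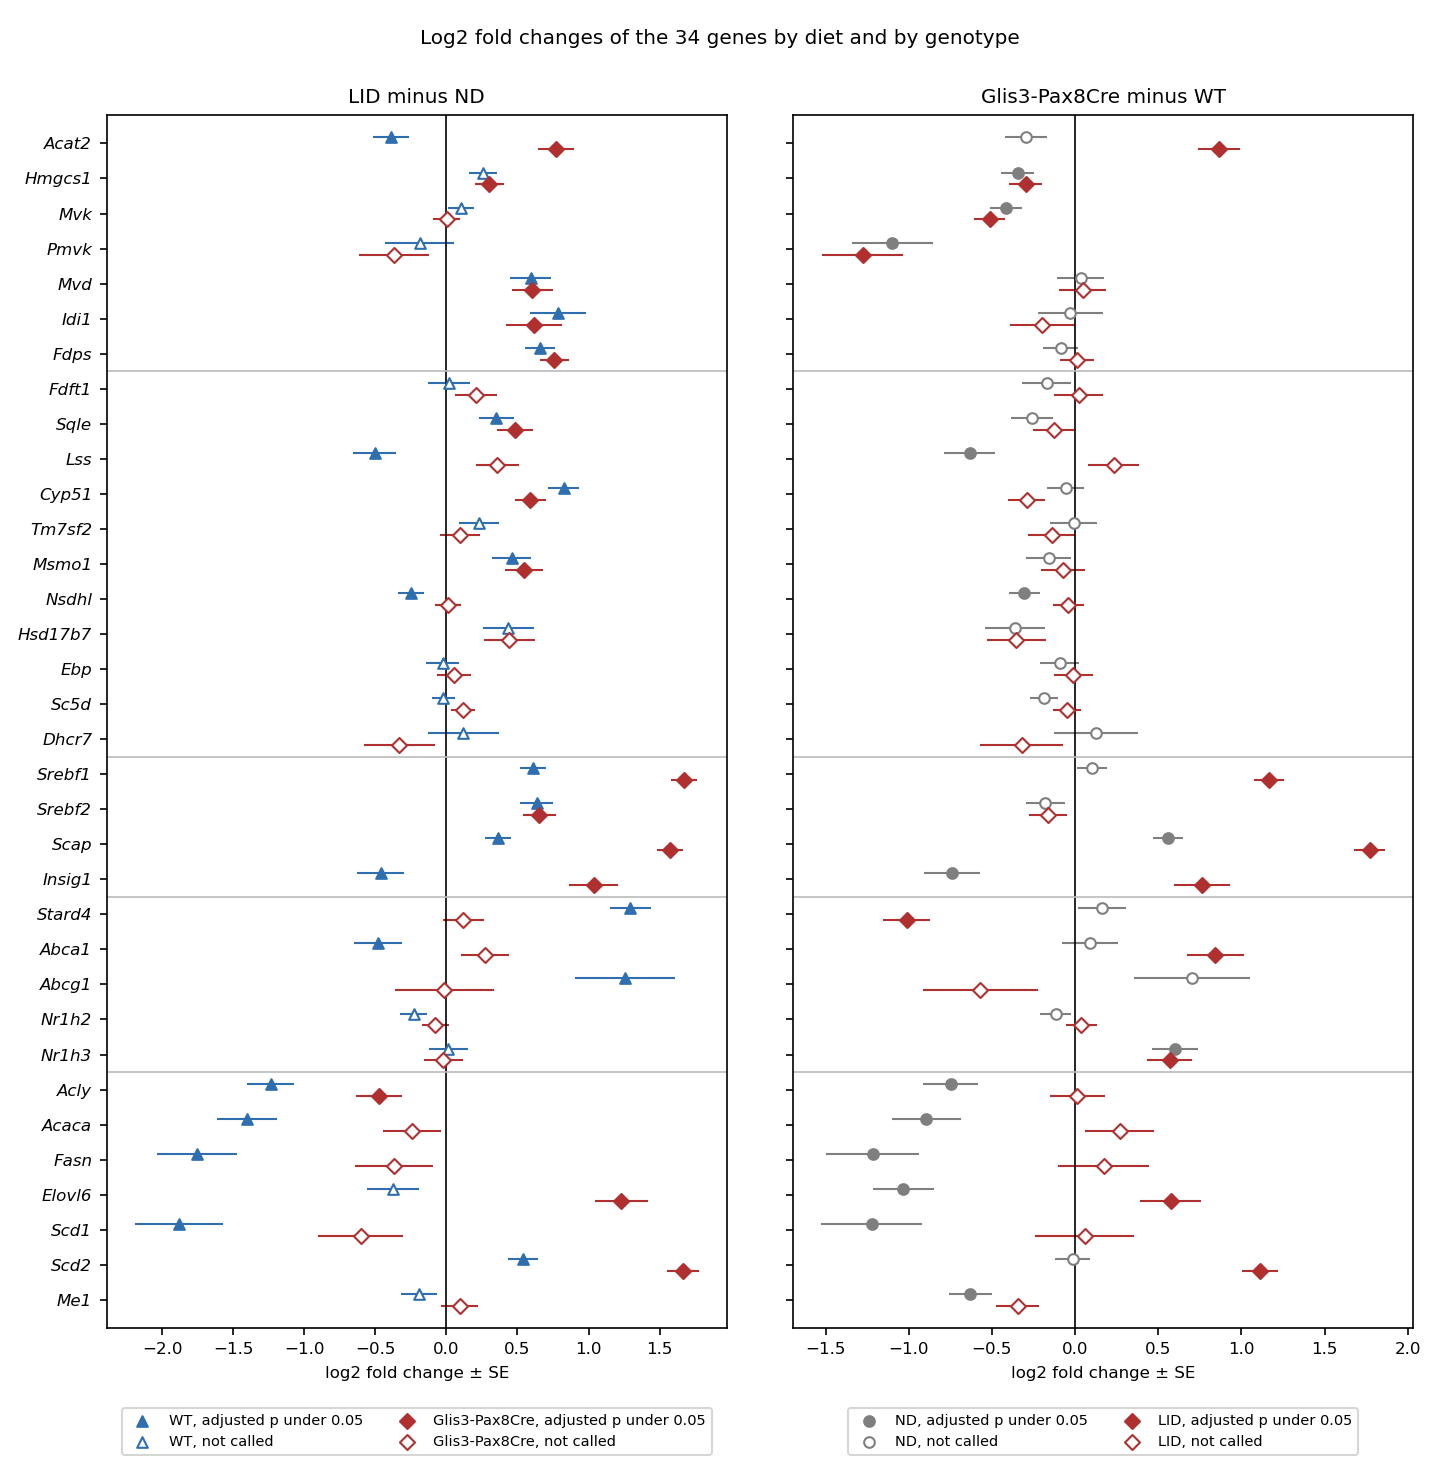
Log2 fold changes with their SE (horizontal axes) of the 34 genes, by diet in each genotype (left) and by genotype on each diet (right), with filled symbols for an adjusted p under 0.05 and lines between the 5 lists. On the left the mevalonate and squalene enzymes that rose in both genotypes lie at like values. *Acat2*, *Srebf1*, *Scap*, *Insig1*, *Elovl6* and *Scd2* lie further right in *Glis3*-Pax8Cre than in WT.

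Of the SREBP regulators, *Srebf1*, *Scap* and *Insig1* had their highest means in *Glis3*-Pax8Cre(LID), while *Srebf2* rose with LID by like folds in both genotypes. With LID, 3 of the 4 rose and 1 fell in WT, and 4 rose in *Glis3*-Pax8Cre. Of the 4, 3 were higher in *Glis3*-Pax8Cre on LID. The shares of all genes were 20.9% risen and 20.8% fallen in WT, 13.1% risen in *Glis3*-Pax8Cre, and 14.9% higher on LID. *Srebf1* (chr11:60199084-60220627, mm10) was at 186, 167, 191 and 202 CPM in the WT(ND) mice and at 208, 197, 194 and 201 in *Glis3*-Pax8Cre(ND), so that the ND groups overlapped. Its level was 297, 277, 280.5 and 282 in WT(LID) and at 606, 570.1, 604 and 770.5 in *Glis3*-Pax8Cre(LID). Each LID group lay above both ND groups, and all *Glis3*-Pax8Cre(LID) mice lay above all WT(LID) mice. The rise with LID was 1.52-fold in WT (log2 fold change 0.61 ± 0.09, adjusted p = 8.09e-05) and 3.19-fold in *Glis3*-Pax8Cre (log2 fold change 1.67 ± 0.092, adjusted p = 7.36e-08), and the rises differed (interaction log2 fold change 1.06 ± 0.13, adjusted p = 7.34e-05). *Srebf1* was not called between genotypes on ND (log2 fold change 0.10 ± 0.09, adjusted p = 0.458) and was 2.24-fold higher in *Glis3*-Pax8Cre(LID) than in the WT(LID) mice (log2 fold change 1.17 ± 0.091, adjusted p = 2.73e-07). *Rai1* on the other strand overlaps *Srebf1*, and the counting took no account of strand. *Fdft1*, *Lss* and *Me1* likewise overlap a gene on the other strand, and *Tm7sf2* overlaps *Vps51* on its own.

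*Scap* encodes the escort of both SREBPs and lies at chr9:110333288-110384949 (mm10, plus strand). Its level was 63.6, 55.8, 62.4 and 58.3 CPM in WT(ND), 74.2, 77.7, 79.3 and 77.5 in WT(LID), 91.2, 87.5, 84.7 and 90.0 in *Glis3*-Pax8Cre(ND) and 217, 249, 278 and 309 in *Glis3*-Pax8Cre(LID). None of the 4 groups overlapped another, and the lowest *Glis3*-Pax8Cre(LID) mouse lay above the highest mouse of any other group. *Scap* was 1.47-fold higher in *Glis3*-Pax8Cre(ND) than in WT(ND) (log2 fold change 0.56 ± 0.09, adjusted p = 0.000763) and 3.41-fold higher in *Glis3*-Pax8Cre(LID) than in the WT(LID) mice (log2 fold change 1.77 ± 0.092, adjusted p = 5.43e-09). It rose 1.29-fold with LID in WT (log2 fold change 0.36 ± 0.09, adjusted p = 0.00436) and 2.98-fold in *Glis3*-Pax8Cre (log2 fold change 1.58 ± 0.092, adjusted p = 1.05e-07). These rises differed (interaction log2 fold change 1.21 ± 0.13, adjusted p = 2.21e-05). The rise in WT was not called without WT(ND) replicates 2 and 4 (log2 fold change 0.30, adjusted p = 0.0687) or with an adipocyte score in the fit (0.15, adjusted p = 0.414). The difference on ND was no smaller with a macrophage score in the fit, though not called (0.70, adjusted p = 0.158). The neighbours of *Scap* were looked at after its values were seen. *Elp6* upstream was at 4.27 to 6.62 CPM over the 16 mice. *Ptpn23* downstream was at 58.2 to 76.6 CPM in WT(ND), 72.7 to 85.7 in WT(LID), 53 to 66 in *Glis3*-Pax8Cre(ND) and 75.6 to 99.1 in *Glis3*-Pax8Cre(LID). For *Ptpn23* the LID groups overlapped, while *Glis3*-Pax8Cre(LID) lay above *Glis3*-Pax8Cre(ND) without overlap.

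*Insig1*, which retains SCAP and is itself a sterol-responsive gene, moved in opposite directions in the 2 genotypes. Its level was 51.9, 69.7, 51.4 and 76.5 CPM in WT(ND), 55, 41.7, 35.8 and 48.6 in WT(LID), 42.5, 43.3, 34 and 30.0 in *Glis3*-Pax8Cre(ND) and 73.8, 71.9, 93.7 and 67.4 in *Glis3*-Pax8Cre(LID). The WT groups overlapped, and all *Glis3*-Pax8Cre(LID) mice lay above all *Glis3*-Pax8Cre(ND) and WT(LID) mice but overlapped WT(ND). In WT its log2 fold change with LID was -0.46 ± 0.17 (adjusted p = 0.0367), and in *Glis3*-Pax8Cre 1.04 ± 0.17 (adjusted p = 0.000519), with an interaction of 1.5 ± 0.24 (adjusted p = 0.000752). With an adipocyte score in the fit the interaction was 0.81 (adjusted p = 0.0723). The call in WT was not kept without WT(ND) replicates 2 and 4 (-0.19, adjusted p = 0.489), and its direction turned with the adipocyte score. It was also not called without any 1 of WT(ND) replicates 2 and 4 and WT(LID) replicates 2, 3 and 4 (log2 fold changes from -0.50 to -0.35, adjusted p from 0.0531 to 0.131). *Insig1* was 1.67-fold lower in *Glis3*-Pax8Cre(ND) than in WT(ND) (log2 fold change -0.74 ± 0.17, adjusted p = 0.00709), which was not called without WT(ND) replicates 2 and 4 (-0.46, adjusted p = 0.175). It was 1.69-fold higher in *Glis3*-Pax8Cre(LID) than in the WT(LID) mice (log2 fold change 0.76 ± 0.17, adjusted p = 0.00292).

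*Srebf2* (chr15:82147269-82204960, mm10) was at 119.5, 117, 87.4 and 94.5 CPM in WT(ND), 164, 159, 171 and 156 in WT(LID), 87.3, 86.9, 88.7 and 107 in *Glis3*-Pax8Cre(ND) and 129.6, 127, 166 and 158 in *Glis3*-Pax8Cre(LID). All LID mice lay above all ND mice, and the genotypes overlapped on each diet. The rise was 1.55-fold in WT (log2 fold change 0.64 ± 0.12, adjusted p = 0.000434) and 1.57-fold in *Glis3*-Pax8Cre (log2 fold change 0.65 ± 0.12, adjusted p = 0.000899). The difference between these rises was 0.017 ± 0.16 (adjusted p = 0.963). The rise in WT was 0.39 with an adipocyte score in the fit (adjusted p = 0.113).

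**Figure D3:**
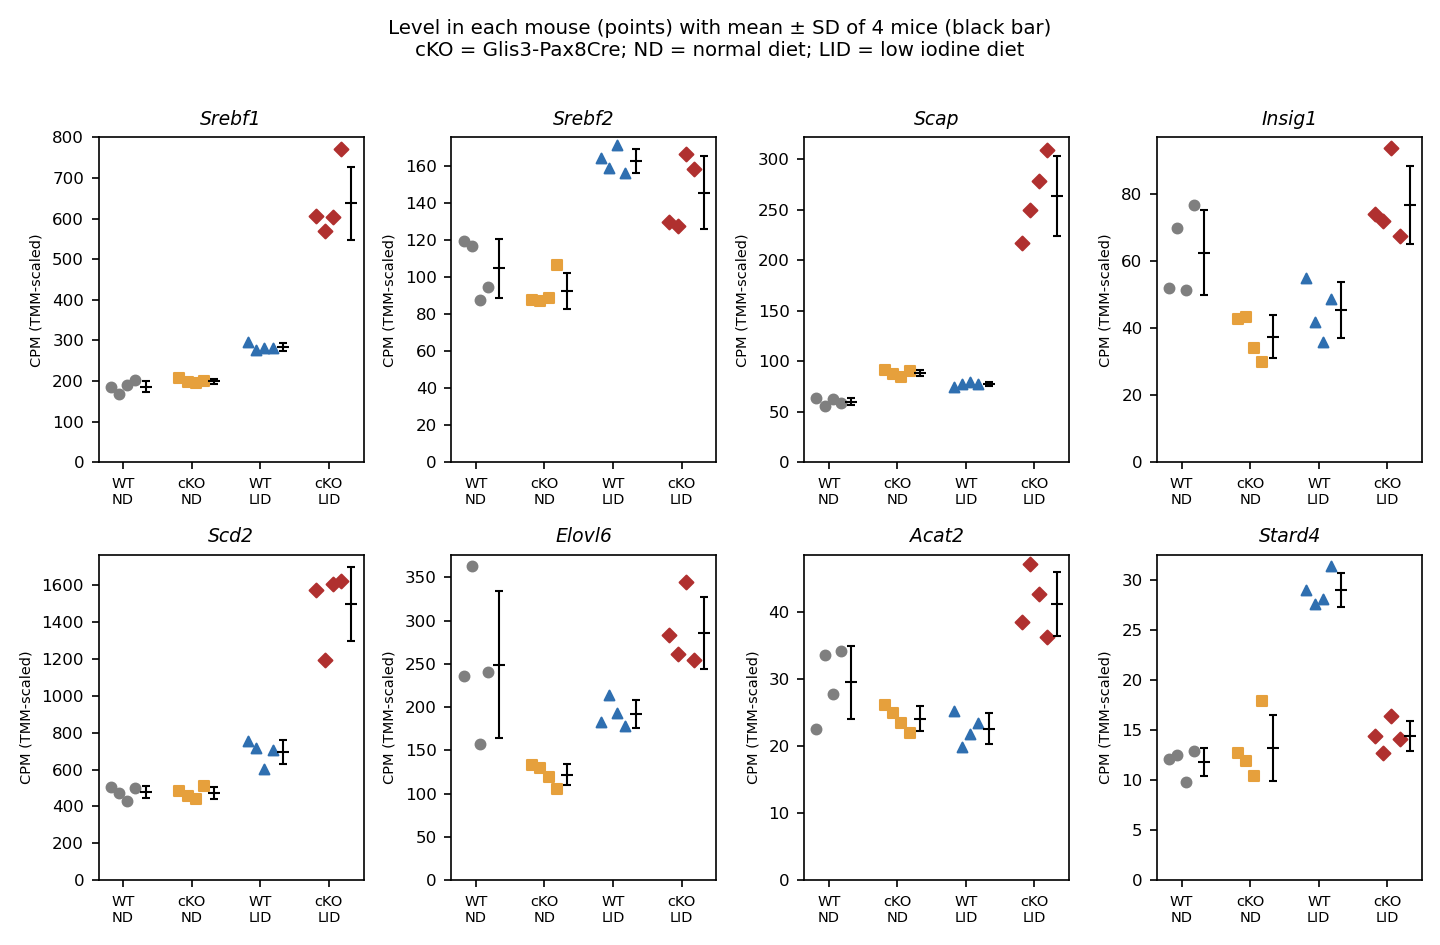
Level in CPM (vertical axes from 0) of 8 genes in each mouse (points) of the 4 groups, with the mean and SD of 4 mice as black bars. *Srebf1*, *Scap*, *Scd2* and *Acat2* are highest in the 4 *Glis3*-Pax8Cre(LID) mice, *Srebf2* is raised in both LID groups, and *Stard4* is raised in WT(LID) alone.

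Of the 7 mevalonate pathway genes, 3 rose and 1 fell with LID in WT, 5 rose in *Glis3*-Pax8Cre, 3 were lower in *Glis3*-Pax8Cre on each diet and 1 was higher on LID. Over all genes 20.9% rose and 20.8% fell in WT, and 13.1% rose in *Glis3*-Pax8Cre. Between genotypes 9.25% of all genes were lower on ND, and 15.4% were lower and 14.9% higher on LID. Of the 7 genes, 3 enzymes rose with LID by like amounts in both genotypes, *Hmgcs1*, *Mvk* and *Pmvk* were lower in *Glis3*-Pax8Cre on both diets, and *Acat2* rose with LID in *Glis3*-Pax8Cre and fell in WT. *Mvd*, which makes isopentenyl diphosphate, was at 10.1 to 13.7 CPM in WT(ND) and 15.7 to 22.5 in WT(LID), and at 10.9 to 14 in *Glis3*-Pax8Cre(ND) and 15.3 to 22.1 in *Glis3*-Pax8Cre(LID). It rose 1.51-fold (log2 fold change 0.59 ± 0.14, adjusted p = 0.00345) and 1.52-fold (log2 fold change 0.61 ± 0.14, adjusted p = 0.00624). *Fdps*, which makes farnesyl diphosphate, was at 19.6 to 26 CPM in WT(ND) and 29.9 to 37.5 in WT(LID), and at 18.7 to 22.7 in *Glis3*-Pax8Cre(ND) and 32.3 to 38.3 in *Glis3*-Pax8Cre(LID), with log2 fold changes of 0.66 ± 0.10 (adjusted p = 0.000118) and 0.76 ± 0.10 (adjusted p = 0.000111). For both genes the LID mice lay above the ND mice of their genotype without overlap. *Idi1*, the isopentenyl diphosphate isomerase, changed by 0.79 ± 0.20 (adjusted p = 0.00482) in WT and by 0.62 ± 0.20 (adjusted p = 0.0331) in *Glis3*-Pax8Cre. The groups of *Glis3*-Pax8Cre overlapped, and in the 8 mice of this comparison with the replicate block, since equal replicate numbers deviated together there, its adjusted p was 0.0673. The call in *Glis3*-Pax8Cre was also not kept without any 1 of *Glis3*-Pax8Cre(ND) replicates 1, 2 and 3 and *Glis3*-Pax8Cre(LID) replicates 1, 3 and 4 (log2 fold changes from 0.53 to 0.62, adjusted p from 0.0572 to 0.098). The rise of *Idi1* in WT was 0.65 with an adipocyte score in the fit (adjusted p = 0.165). None of the 3 genes was called between genotypes or in the interaction.

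*Hmgcs1*, which makes HMG-CoA, was lower in *Glis3*-Pax8Cre on both diets, by small amounts. Its levels were 47.3 to 62.4 CPM in WT(ND), 58.3 to 69.4 in WT(LID), 40.2 to 43.6 in *Glis3*-Pax8Cre(ND) and 45.6 to 59.3 in *Glis3*-Pax8Cre(LID), where the LID groups overlapped. The log2 fold changes between genotypes were -0.34 ± 0.10 (adjusted p = 0.0255) on ND and -0.30 ± 0.10 (adjusted p = 0.0339) on LID. The rise with LID was 0.30 ± 0.10 (adjusted p = 0.0369) in *Glis3*-Pax8Cre, with an adjusted p of 0.0571 in the replicate block, and 0.26 ± 0.099 (adjusted p = 0.0506) in WT, where DESeq2 called it (adjusted p = 0.037). Each of these calls was lost when single mice were left out. The rise in *Glis3*-Pax8Cre was not called without any 1 of WT(ND) replicate 4, *Glis3*-Pax8Cre(ND) replicates 1, 2 and 3, WT(LID) replicates 1 and 2 and *Glis3*-Pax8Cre(LID) replicates 2 and 3 (log2 fold changes from 0.22 to 0.30, adjusted p from 0.0511 to 0.138). The difference on LID was not called without any 1 of WT(LID) replicates 1 and 4 and *Glis3*-Pax8Cre(LID) replicates 1, 2 and 4 (log2 fold changes from -0.30 to -0.24, adjusted p from 0.0549 to 0.108), and that on ND without any 1 of WT(ND) replicates 2 and 4 and *Glis3*-Pax8Cre(ND) replicates 2 and 3 (log2 fold changes from -0.34 to -0.26, adjusted p from 0.0512 to 0.0922). *Mvk* and *Pmvk*, the kinases that phosphorylate mevalonate in sequence, were lower in *Glis3*-Pax8Cre on both diets without overlap. *Pmvk* was at 15.6, 28.8, 10.8 and 16 CPM in WT(ND), 17.3, 16.2, 14.7 and 14.4 in WT(LID), 9.47, 8.4, 5.99 and 9.51 in *Glis3*-Pax8Cre(ND) and 7.02, 7.94, 5.83 and 4.99 in *Glis3*-Pax8Cre(LID). It was 2.14-fold lower on ND (log2 fold change -1.10 ± 0.24, adjusted p = 0.00597) and 2.42-fold lower on LID (log2 fold change -1.28 ± 0.24, adjusted p = 0.000974). *Mvk* was 1.33-fold lower on ND (log2 fold change -0.41 ± 0.094, adjusted p = 0.00677) and 1.43-fold lower on LID (log2 fold change -0.51 ± 0.094, adjusted p = 0.000663). On ND neither call was kept without WT(ND) replicates 2 and 4, at -0.66 for *Pmvk* (adjusted p = 0.091) and -0.36 for *Mvk* (adjusted p = 0.108), and both calls on LID were kept.

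*Acat2*, the cytosolic thiolase that makes acetoacetyl-CoA, was at 21.9 to 26 CPM in *Glis3*-Pax8Cre(ND) and 36.3 to 47.1 in *Glis3*-Pax8Cre(LID), a 1.71-fold rise without overlap (log2 fold change 0.77 ± 0.13, adjusted p = 0.000502). In WT it was at 22.5 to 34.2 CPM on ND and 19.9 to 25.2 on LID, a fall (log2 fold change -0.39 ± 0.13, adjusted p = 0.0217) that was not called without WT(ND) replicates 2 and 4 (-0.15, adjusted p = 0.418) and turned direction with an adipocyte score in the fit. The fall was also not called without any 1 of WT(ND) replicates 2 and 4 and WT(LID) replicates 2 and 3 (log2 fold changes from -0.36 to -0.30, adjusted p from 0.0568 to 0.0818). *Acat2* was 1.82-fold higher in *Glis3*-Pax8Cre(LID) than in the WT(LID) mice (log2 fold change 0.87 ± 0.13, adjusted p = 0.000101), and the interaction was 1.16 ± 0.18 (adjusted p = 0.000555). The interaction was 0.62 with an adipocyte score in the fit (adjusted p = 0.0661).

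From squalene to cholesterol, *Cyp51*, *Sqle* and *Msmo1* rose with LID in both genotypes. Between genotypes on LID, 0 of the 11 genes were called by edgeR, where 14.9% of all genes were higher and 15.4% lower. This count stood against 1 at an unadjusted p under 0.05 and 1 by DESeq2, both lower in *Glis3*-Pax8Cre. *Cyp51*, the lanosterol demethylase, was at 13.9 to 17.7 CPM in WT(ND), 24.4 to 31.8 in WT(LID), 14.2 to 16.5 in *Glis3*-Pax8Cre(ND) and 20.1 to 26.1 in *Glis3*-Pax8Cre(LID), with no overlap between diets. It rose 1.77-fold in WT (log2 fold change 0.83 ± 0.11, adjusted p = 3.12e-05) and 1.5-fold in *Glis3*-Pax8Cre (log2 fold change 0.59 ± 0.11, adjusted p = 0.00139). *Msmo1*, a methylsterol oxidase, rose by 0.46 ± 0.13 (adjusted p = 0.0124) and 0.54 ± 0.14 (adjusted p = 0.00861) on the log2 scale. *Sqle*, the squalene epoxidase, rose by 0.35 ± 0.12 (adjusted p = 0.0326) and 0.48 ± 0.12 (adjusted p = 0.0106). The rise of *Sqle* in WT was no smaller without WT(ND) replicates 2 and 4, though not called (0.40, adjusted p = 0.0652), nor was it called without any 1 of WT(ND) replicates 3 and 4 and WT(LID) replicates 1 and 4 (log2 fold changes from 0.29 to 0.33, adjusted p from 0.0775 to 0.0965). *Msmo1* and *Sqle* overlapped between diets in WT but not in *Glis3*-Pax8Cre. With an adipocyte score in the fit the rises in WT were 0.51 for *Msmo1* (adjusted p = 0.105) and 0.37 for *Sqle* (adjusted p = 0.194). On LID, *Cyp51* was the gene called lower by DESeq2 (-0.29, adjusted p = 0.0446, against 0.0569 by edgeR).

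*Lss*, the lanosterol synthase, was highest in WT(ND). It was at 18 to 25.2 CPM there, 12.6 to 17.7 in WT(LID), 11.9 to 16.6 in *Glis3*-Pax8Cre(ND) and 14.3 to 22 in *Glis3*-Pax8Cre(LID), so that WT(ND) overlapped neither *Glis3*-Pax8Cre(ND) nor WT(LID). It was lower in *Glis3*-Pax8Cre(ND) than in WT(ND) (log2 fold change -0.63 ± 0.15, adjusted p = 0.00967), fell with LID in WT (log2 fold change -0.51 ± 0.15, adjusted p = 0.0144), and had an interaction of 0.86 ± 0.22 (adjusted p = 0.016). None of these 3 calls was kept without WT(ND) replicates 2 and 4, at -0.47 (adjusted p = 0.17), -0.35 (adjusted p = 0.18) and 0.70 (adjusted p = 0.107). The fall in WT was also not called without any 1 of WT(ND) replicate 4 and WT(LID) replicate 3 (log2 fold changes from -0.43 to -0.41, adjusted p from 0.0522 to 0.0546). *Nsdhl*, a sterol dehydrogenase, was called lower in WT(LID) and in *Glis3*-Pax8Cre(ND) than in WT(ND), at -0.25 ± 0.093 (adjusted p = 0.0404) and -0.30 ± 0.093 (adjusted p = 0.0323), and neither call was kept without these mice. The call in WT was also lost without any 1 of WT(ND) replicates 2, 3 and 4, *Glis3*-Pax8Cre(ND) replicate 2, WT(LID) replicates 2, 3 and 4 and *Glis3*-Pax8Cre(LID) replicates 1, 3 and 4 (log2 fold changes from -0.27 to -0.16, adjusted p from 0.0502 to 0.163), and that on ND without any 1 of WT(ND) replicates 2 and 4, *Glis3*-Pax8Cre(ND) replicates 1, 2 and 4 and WT(LID) replicate 2 (log2 fold changes from -0.31 to -0.21, adjusted p from 0.0513 to 0.113). The remaining 6 genes, *Fdft1*, *Tm7sf2*, *Hsd17b7*, *Ebp*, *Sc5d* and *Dhcr7*, were not called in any of the 5 comparisons by edgeR. DESeq2 called 1 of them, *Hsd17b7*, higher with LID in WT (log2 fold change 0.45, adjusted p = 0.0403, against 0.0628 by edgeR). *Ebp*, a sterol isomerase, was at 22.4 to 24.2 CPM in WT(ND) and 19.3 to 28.2 in *Glis3*-Pax8Cre(LID), and *Sc5d*, a sterol desaturase, at 36.2 to 43.5 and 33.5 to 37.7.

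Among the genes of sterol transport, *Stard4* rose with LID in WT glands alone. *Stard4*, which encodes a cytosolic sterol carrier, was at 12.2, 12.5, 9.82 and 12.9 CPM in WT(ND), 29.1, 27.6, 28.1 and 31.5 in WT(LID), 12.7, 11.9, 10.4 and 18 in *Glis3*-Pax8Cre(ND) and 14.4, 12.7, 16.4 and 14.1 in *Glis3*-Pax8Cre(LID). The 4 WT(LID) mice lay above all other mice, and the other groups overlapped. It rose 2.45-fold in WT (log2 fold change 1.29 ± 0.14, adjusted p = 5.83e-06) and changed by 0.12 ± 0.14 (adjusted p = 0.569) in *Glis3*-Pax8Cre, with an interaction of -1.18 ± 0.20 (adjusted p = 0.00143). The interaction was -1.08 with an adipocyte score in the fit (adjusted p = 0.0582). In *Glis3*-Pax8Cre(LID) it was 2.02-fold lower than in WT(LID) (log2 fold change -1.01 ± 0.14, adjusted p = 7.95e-05). Endothelial markers moved with it. Their sum over 5 genes was 1316 to 1488 CPM in WT(LID) against 488 to 620.0 in WT(ND), 634 to 889 in *Glis3*-Pax8Cre(ND) and 590.5 to 754 in *Glis3*-Pax8Cre(LID), and 5 of 5 were called higher with LID in WT and 4 of 5 lower in *Glis3*-Pax8Cre(LID) than in the WT(LID) mice. The sum over 5 fibroblast markers was also highest in WT(LID), at 1062 to 1240 CPM against at most 742 CPM in any other mouse. Of these 5 markers, 2 were called higher and 2 lower with LID in WT. Between genotypes on LID, 2 were called lower in *Glis3*-Pax8Cre and 0 higher. The part of either marker list in the result was not tested.

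*Abcg1*, a sterol efflux transporter, was at 12.8, 11.7, 9.3 and 14 CPM in WT(ND), 23.7, 29.9, 32.6 and 28.2 in WT(LID), 10.7, 13.7, 11.1 and 42.2 in *Glis3*-Pax8Cre(ND) and 18.3, 21.4, 17.2 and 20.2 in *Glis3*-Pax8Cre(LID). The last *Glis3*-Pax8Cre(ND) mouse is the one with high thymocyte markers. In WT *Abcg1* rose 2.39-fold without overlap (log2 fold change 1.26 ± 0.35, adjusted p = 0.0103), and WT(LID) lay above *Glis3*-Pax8Cre(LID) without overlap, which was not called with all 16 mice (log2 fold change -0.57 ± 0.35, adjusted p = 0.243) but was called without *Glis3*-Pax8Cre(ND) replicate 4 (log2 fold change -0.58, adjusted p = 0.00322). By edgeR the interaction was -1.27 with all 16 mice (adjusted p = 0.111) and -0.57 without that mouse (adjusted p = 0.0658). The rise in WT was no smaller without WT(ND) replicates 2 and 4, though not called (1.37, adjusted p = 0.0501), and was 0.53 with an adipocyte score in the fit (adjusted p = 0.506). DESeq2 called the interaction with all 16 mice (-1.28, adjusted p = 0.04), which edgeR did not (adjusted p = 0.111).

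*Abca1*, the transporter that loads cholesterol onto apolipoprotein, showed another order. Its level was 129, 101, 149 and 158 CPM in WT(ND), 72.8, 113, 112 and 87 in WT(LID), 113, 159.6, 161 and 138 in *Glis3*-Pax8Cre(ND) and 150.5, 152, 188 and 199 in *Glis3*-Pax8Cre(LID), and the LID groups did not overlap. It was 1.79-fold higher in *Glis3*-Pax8Cre(LID) than in the WT(LID) mice (log2 fold change 0.84 ± 0.17, adjusted p = 0.00154) and fell with LID in WT (log2 fold change -0.48 ± 0.17, adjusted p = 0.0332), a fall no smaller without WT(ND) replicates 2 and 4, though not called (-0.53, adjusted p = 0.0508), nor called without any 1 of WT(ND) replicates 1, 3 and 4 and WT(LID) replicates 1 and 4 (log2 fold changes from -0.49 to -0.36, adjusted p from 0.0507 to 0.109). The interaction was 0.75 ± 0.24 (adjusted p = 0.0543), and it was called without WT(ND) replicate 2 (log2 fold change 0.87, adjusted p = 0.0271) and by DESeq2 (0.74, adjusted p = 0.0243).

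The LXR receptors did not respond to diet at the threshold. *Nr1h3*, encoding LXR-alpha, was at 14.5 to 22.2 CPM in WT(ND), 16.5 to 20.4 in WT(LID), 23.3 to 33.5 in *Glis3*-Pax8Cre(ND) and 23.5 to 31 in *Glis3*-Pax8Cre(LID), and the genotypes did not overlap on either diet. It was 1.52-fold higher in *Glis3*-Pax8Cre on ND (log2 fold change 0.60 ± 0.14, adjusted p = 0.00705) and 1.48-fold higher on LID (log2 fold change 0.57 ± 0.14, adjusted p = 0.00545). Macrophage markers, summed over 7 genes, were at 194 to 292 CPM in WT(ND), 247 to 272 in WT(LID), 334 to 392 in *Glis3*-Pax8Cre(ND) and 230.0 to 316 in *Glis3*-Pax8Cre(LID), with 7 of 7 called higher in *Glis3*-Pax8Cre on ND and 1 of 7 on LID. With a macrophage score in the fit, the difference of *Nr1h3* was 0.0093 on ND (adjusted p = 0.989) and 0.48 on LID (adjusted p = 0.00381). On ND *Nr1h3* was 0.57 without WT(ND) replicates 2 and 4, though not called (adjusted p = 0.0945), and on LID 0.40 with an adipocyte score (adjusted p = 0.0579). *Nr1h2*, encoding LXR-beta, was not called in any comparison. In WT its level per kilobase was 27.96 ± 1.54 on ND and 23.83 ± 0.693 on LID, and the LID mice lay below the ND mice without overlap.

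Of the 7 fatty acid genes, 1 rose and 4 fell with LID in WT, 2 rose and 1 fell in *Glis3*-Pax8Cre, 6 were lower in *Glis3*-Pax8Cre on ND and 2 were higher on LID. Of all genes, 20.9% rose and 20.8% fell in WT, and 13.1% rose and 12.3% fell in *Glis3*-Pax8Cre. Between genotypes 9.25% of all genes were lower on ND and 14.9% higher on LID. *Scd2* and *Elovl6* were highest or near their highest in *Glis3*-Pax8Cre(LID), whereas *Acly*, *Acaca*, *Fasn* and *Scd1* were highest in WT(ND). *Scd2* was at 508, 475, 431 and 497 CPM in WT(ND), 754, 715, 605 and 707 in WT(LID), 484, 455, 442 and 511 in *Glis3*-Pax8Cre(ND) and 1573, 1197, 1608 and 1622 in *Glis3*-Pax8Cre(LID). The ND groups overlapped, all WT(LID) mice lay above them, and all *Glis3*-Pax8Cre(LID) mice lay above WT(LID). The rise with LID was 1.46-fold in WT (log2 fold change 0.54 ± 0.11, adjusted p = 0.000858) and 3.17-fold in *Glis3*-Pax8Cre (log2 fold change 1.66 ± 0.11, adjusted p = 3.05e-07), with an interaction of 1.12 ± 0.15 (adjusted p = 0.000198). *Scd2* was 2.16-fold higher in *Glis3*-Pax8Cre(LID) than in the WT(LID) mice (log2 fold change 1.11 ± 0.11, adjusted p = 2.54e-06). With an adipocyte score in the fit, the difference between genotypes on LID was 1.15 (adjusted p = 1.48e-05), and the rise in WT was 0.47 and not called (adjusted p = 0.0635).

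*Elovl6*, which elongates palmitate, was at 236, 363, 157 and 240.0 CPM in WT(ND), 182, 214, 193 and 178 in WT(LID), 132, 129.9, 119 and 106 in *Glis3*-Pax8Cre(ND) and 283, 261, 345 and 254 in *Glis3*-Pax8Cre(LID). All *Glis3*-Pax8Cre(ND) mice lay below every other mouse, and *Glis3*-Pax8Cre(LID) overlapped WT(ND) but not WT(LID). In *Glis3*-Pax8Cre it rose 2.35-fold with LID (log2 fold change 1.23 ± 0.19, adjusted p = 0.000277), while in WT the change was -0.38 ± 0.18 (adjusted p = 0.114) and the interaction 1.61 ± 0.26 (adjusted p = 0.000896), which was 1.21 with an adipocyte score in the fit (adjusted p = 0.075). It was 2.04-fold lower in *Glis3*-Pax8Cre(ND) than in WT(ND) (log2 fold change -1.03 ± 0.19, adjusted p = 0.00152), and this call was kept without WT(ND) replicates 2 and 4 (log2 fold change -0.68, adjusted p = 0.0248). With the adipocyte score the difference on ND was -0.81 (adjusted p = 0.0549). It was 1.49-fold higher in *Glis3*-Pax8Cre(LID) than in the WT(LID) mice (log2 fold change 0.58 ± 0.18, adjusted p = 0.0272), a call lost with an adipocyte score (0.40, adjusted p = 0.178). It was also lost without any 1 of WT(LID) replicates 1, 3 and 4 and *Glis3*-Pax8Cre(LID) replicate 3 (log2 fold changes from 0.47 to 0.57, adjusted p from 0.0586 to 0.0857).

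*Scd1* was at 3377, 8837, 3928 and 7244 CPM in WT(ND), 2216, 1040, 1363 and 1723 in WT(LID), 2841, 2914, 2153 and 2106 in *Glis3*-Pax8Cre(ND) and 1298, 2032, 1963 and 1308 in *Glis3*-Pax8Cre(LID). *Fasn*, the fatty acid synthase, was at 1361, 2821, 1412 and 3057 CPM in WT(ND), 852, 538, 535 and 635 in WT(LID), 1027, 1146, 704 and 844 in *Glis3*-Pax8Cre(ND) and 586, 748, 975 and 577 in *Glis3*-Pax8Cre(LID). *Acaca*, which makes malonyl-CoA, was at 236, 453, 249 and 415 CPM in WT(ND), 144, 129.5, 123 and 115 in WT(LID), 198, 200.4, 174 and 155 in *Glis3*-Pax8Cre(ND) and 133, 150.2, 209.8 and 123 in *Glis3*-Pax8Cre(LID). For all 3 genes WT(ND) lay above *Glis3*-Pax8Cre(ND) and WT(LID) without overlap, and WT(ND) replicates 2 and 4 were the highest 2 of the 16 mice. With LID in WT, *Scd1* fell 3.69-fold (log2 fold change -1.88 ± 0.31, adjusted p = 0.000193), *Fasn* 3.38-fold (log2 fold change -1.76 ± 0.28, adjusted p = 0.000167) and *Acaca* 2.65-fold (log2 fold change -1.40 ± 0.21, adjusted p = 8.97e-05). In *Glis3*-Pax8Cre(ND) against WT(ND), *Scd1* was 2.33-fold lower (log2 fold change -1.22 ± 0.30, adjusted p = 0.0112), *Fasn* 2.33-fold (log2 fold change -1.22 ± 0.28, adjusted p = 0.00709) and *Acaca* 1.86-fold (log2 fold change -0.89 ± 0.21, adjusted p = 0.00786). None of the 3 genes was called with LID in *Glis3*-Pax8Cre or between genotypes on LID. For *Scd1* all *Glis3*-Pax8Cre(LID) mice nonetheless lay below all *Glis3*-Pax8Cre(ND) mice, while *Fasn* and *Acaca* overlapped between these groups. The interaction was 1.39 ± 0.39 (adjusted p = 0.0303) for *Fasn*, 1.16 ± 0.29 (adjusted p = 0.0172) for *Acaca* and 1.28 ± 0.42 (adjusted p = 0.0622) for *Scd1*. That of *Fasn* was not called without any 1 of WT(ND) replicates 2 and 4, *Glis3*-Pax8Cre(ND) replicates 3 and 4, WT(LID) replicates 2, 3 and 4 and *Glis3*-Pax8Cre(LID) replicate 3 (log2 fold changes from 1.16 to 1.39, adjusted p from 0.0511 to 0.0669), and that of *Scd1* was called without any 1 of WT(ND) replicates 1 and 3 and WT(LID) replicate 1 (log2 fold changes from 1.41 to 1.47, adjusted p from 0.0292 to 0.0423) and by DESeq2 (1.27, adjusted p = 0.0174). Without WT(ND) replicates 2 and 4 the interaction was 0.67 for *Acaca* (adjusted p = 0.107) and 0.73 for *Fasn* (adjusted p = 0.201). With an adipocyte score it was 0.39 for *Acaca* (adjusted p = 0.642) and 0.30 for *Fasn* (adjusted p = 0.794), and with a macrophage score 1.28 (adjusted p = 0.108) and 1.43 (adjusted p = 0.163).

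*Acly*, which makes cytosolic acetyl-CoA, fell with LID in both genotypes, with log2 fold changes of -1.24 ± 0.17 (adjusted p = 3.18e-05) in WT and -0.47 ± 0.16 (adjusted p = 0.0444) in *Glis3*-Pax8Cre, the second not called in the replicate block over 16 mice (adjusted p = 0.0539). The latter was also not called without any 1 of WT(ND) replicate 4, *Glis3*-Pax8Cre(ND) replicates 1 and 2, WT(LID) replicates 1, 2, 3 and 4 and *Glis3*-Pax8Cre(LID) replicates 1, 2 and 4 (log2 fold changes from -0.48 to -0.39, adjusted p from 0.05 to 0.126). *Acly* was lower in *Glis3*-Pax8Cre(ND) than in WT(ND) (log2 fold change -0.75 ± 0.16, adjusted p = 0.0055), with an interaction of 0.76 ± 0.23 (adjusted p = 0.0434) that was not called without any 1 of WT(ND) replicates 2 and 4, *Glis3*-Pax8Cre(ND) replicates 3 and 4, WT(LID) replicates 1, 2, 3 and 4 and *Glis3*-Pax8Cre(LID) replicates 1, 2, 3 and 4 (log2 fold changes from 0.54 to 0.80, adjusted p from 0.0547 to 0.0953). *Me1*, a malic enzyme that yields NADPH, was at 263 to 387 CPM in WT(ND), 276 to 289.5 in WT(LID), 170.1 to 243 in *Glis3*-Pax8Cre(ND) and 191 to 239.7 in *Glis3*-Pax8Cre(LID). It was called by edgeR on ND between genotypes (log2 fold change -0.63 ± 0.13, adjusted p = 0.00364). On LID the groups did not overlap, and its log2 fold change of -0.34 had an adjusted p of 0.0562 by edgeR and 0.0402 by DESeq2.

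Adipocyte markers moved with *Scd1*, *Fasn*, *Acaca* and *Acly* between WT(ND) and the WT(LID) and *Glis3*-Pax8Cre(ND) groups, but not with LID in *Glis3*-Pax8Cre. The sum over 7 markers was 774 to 1342 CPM in WT(ND), 419.8 to 695 in WT(LID), 452 to 899.5 in *Glis3*-Pax8Cre(ND) and 487 to 1076 in *Glis3*-Pax8Cre(LID). Of the 7, 6 were called lower with LID in WT and 2 lower in *Glis3*-Pax8Cre(ND) than in WT(ND). With LID in *Glis3*-Pax8Cre 1 was called higher and 0 lower. On LID 2 were higher in *Glis3*-Pax8Cre than in WT, and 4 were called above 0 in the interaction. The sum over 5 brown adipocyte markers was 203 to 734 CPM in WT(ND), 31.7 to 105 in WT(LID), 99.4 to 230.3 in *Glis3*-Pax8Cre(ND) and 46.6 to 158 in *Glis3*-Pax8Cre(LID). Of these 5 markers, 5 were called lower with LID in WT and 0 in either direction with LID in *Glis3*-Pax8Cre. Between genotypes 1 was lower in *Glis3*-Pax8Cre on ND and 1 higher on LID, and 3 were called above 0 in the interaction. No marker of either list was at 0 in any mouse. Without WT(ND) replicates 2 and 4, the calls on ND were not kept for *Scd1* (-0.54, adjusted p = 0.294), *Fasn* (-0.57, adjusted p = 0.205), *Acaca* (-0.40, adjusted p = 0.217), *Acly* (-0.42, adjusted p = 0.0949) and *Me1* (-0.37, adjusted p = 0.117), while the falls with LID in WT were kept for the first 4. With an adipocyte score in the fit the fall in WT was -0.86 for *Scd1* (adjusted p = 0.0982), -0.82 for *Fasn* (adjusted p = 0.0905), -0.74 for *Acaca* (adjusted p = 0.0617) and -0.79 for *Acly* (adjusted p = 0.0227). For *Scd2*, *Srebf1* and *Scap* the highest of the 16 mice was *Glis3*-Pax8Cre(LID) replicate 4, which had the lowest adipocyte sum of its group. *Elovl6* and *Insig1* were at the lowest level of that group in the same mouse. The cause of these levels was not tested.

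**Figure D4:**
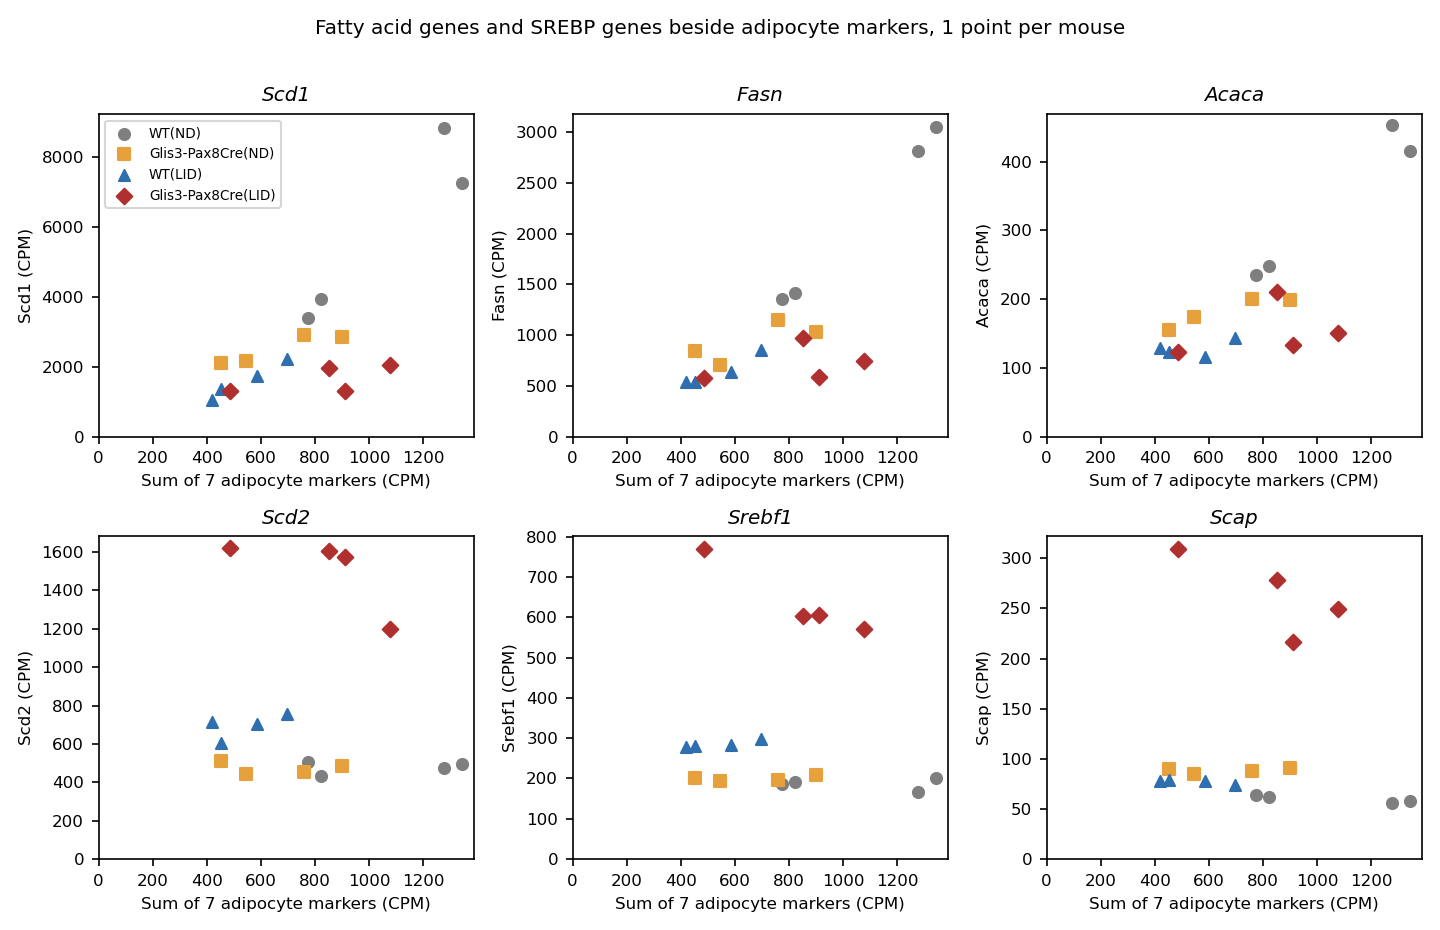
Level in CPM of 6 genes (vertical axes) against the sum of 7 adipocyte markers in CPM (horizontal axes), 1 point per mouse, with symbols by group. WT(ND) replicates 2 and 4 lie at the upper right for *Scd1*, *Fasn* and *Acaca*, while the *Glis3*-Pax8Cre(LID) mice lie at the top for *Scd2*, *Srebf1* and *Scap* over the whole range of their marker sums.

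Lists of 20 other sterol genes and 23 other lipid genes set these results in the wider pathway. Of the other sterol genes, 4 rose and 2 fell with LID in WT, against 20.9% and 20.8% of all genes, and 4 rose and 2 fell in *Glis3*-Pax8Cre, against 13.1% and 12.3%. In *Glis3*-Pax8Cre(ND) 3 were higher and 1 lower, against 10.3% and 9.25%, and in *Glis3*-Pax8Cre(LID) 6 were higher and 0 lower, against 14.9% and 15.4%. In the interaction 2 were called above 0 and 1 below, against 4.43% and 7.41%. The upward share in WT was close to that of all genes. The count of 0 by edgeR stood against 1 gene at an unadjusted p under 0.05 and 0 by DESeq2. *Npc2*, a lysosomal cholesterol carrier, was at 397, 405, 602 and 478 CPM in WT(ND), 2010, 1862, 1798 and 1784 in WT(LID), 1469, 1737, 2270 and 1100 in *Glis3*-Pax8Cre(ND) and 2774, 3434, 3048 and 2692 in *Glis3*-Pax8Cre(LID). All WT(ND) mice lay below every other mouse. It was 3.49-fold higher in *Glis3*-Pax8Cre(ND) than in WT(ND) (log2 fold change 1.80 ± 0.19, adjusted p = 2.57e-05), and rose 3.96-fold with LID in WT (log2 fold change 1.99 ± 0.19, adjusted p = 1.28e-06) and 1.82-fold in *Glis3*-Pax8Cre (log2 fold change 0.86 ± 0.19, adjusted p = 0.00357). In *Glis3*-Pax8Cre(LID) it was 1.6-fold higher than in WT(LID) (log2 fold change 0.68 ± 0.18, adjusted p = 0.0109), and the interaction was -1.12 ± 0.26 (adjusted p = 0.011), which was -1.05 and not called without WT(ND) replicates 2 and 4 (adjusted p = 0.0621). *Cyp27a1*, which makes 27-hydroxycholesterol, was 1.67-fold higher in *Glis3*-Pax8Cre(LID) than in the WT(LID) mice (log2 fold change 0.74 ± 0.21, adjusted p = 0.0139), a difference that was 0.42 with an adipocyte score in the fit (adjusted p = 0.133). With that score *Npc2* was 0.61 higher on LID (adjusted p = 0.058). *Mylip*, the ligase that degrades lipoprotein receptors, fell with LID in *Glis3*-Pax8Cre (log2 fold change -0.80 ± 0.17, adjusted p = 0.00337).

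Of the 23 other lipid genes, 4 rose and 11 fell with LID in WT, against 20.9% and 20.8% of all genes. In *Glis3*-Pax8Cre 7 rose and 2 fell, against 13.1% and 12.3%. Between genotypes 0 were called higher and 16 lower in *Glis3*-Pax8Cre(ND), against 10.3% and 9.25%. In *Glis3*-Pax8Cre(LID) 3 were higher and 5 lower, against 14.9% and 15.4%. In the interaction 6 were called above 0 and 0 below, against 4.43% and 7.41%. Both counts of 0 were also 0 at an unadjusted p under 0.05 and by DESeq2. Without WT(ND) replicates 2 and 4, 4 were lower in *Glis3*-Pax8Cre(ND), against 2.82% of all genes. In WT the largest falls with LID were those of *Thrsp*, a lipogenic regulator (6.01-fold, log2 fold change -2.59 ± 0.34, adjusted p = 3.59e-05), *Mlxipl*, which encodes the glucose-responsive factor ChREBP (5.37-fold, log2 fold change -2.43 ± 0.35, adjusted p = 6.58e-05), *Acss2*, an acetyl-CoA synthetase (3.51-fold, log2 fold change -1.81 ± 0.25, adjusted p = 4.49e-05), and *Dgat2*, which makes triglyceride (3.33-fold, log2 fold change -1.73 ± 0.28, adjusted p = 0.000195). The fall of *Dgat2* was -0.79 with an adipocyte score in the fit (adjusted p = 0.0874). On ND *Mlxipl* (log2 fold change -1.43 ± 0.33, adjusted p = 0.00848), *Acacb*, the mitochondrial acetyl-CoA carboxylase (log2 fold change -1.36 ± 0.36, adjusted p = 0.0174), *Thrsp* (log2 fold change -1.04 ± 0.32, adjusted p = 0.0358) and *Dgat2* (log2 fold change -0.97 ± 0.27, adjusted p = 0.0236) were lower in *Glis3*-Pax8Cre, and none of these 4 calls was kept without WT(ND) replicates 2 and 4. Of these, *Acacb* was also not called without any 1 of WT(ND) replicates 2 and 4 and *Glis3*-Pax8Cre(ND) replicate 3 (log2 fold changes from -1.21 to -1.04, adjusted p from 0.0512 to 0.0657), *Thrsp* not without any 1 of WT(ND) replicates 2 and 4 and *Glis3*-Pax8Cre(ND) replicates 2, 3 and 4 (log2 fold changes from -1.07 to -0.72, adjusted p from 0.0568 to 0.127), and *Dgat2* not without any 1 of WT(ND) replicates 2 and 4 and *Glis3*-Pax8Cre(ND) replicates 3 and 4 (log2 fold changes from -0.91 to -0.69, adjusted p from 0.056 to 0.0901). *Acsl3*, an acyl-CoA synthetase, rose 1.98-fold with LID in *Glis3*-Pax8Cre (log2 fold change 0.98 ± 0.13, adjusted p = 7.85e-05), while *Thrsp* (log2 fold change -1.11 ± 0.32, adjusted p = 0.0216) and *Acss2* (log2 fold change -0.78 ± 0.24, adjusted p = 0.0288) fell. The fall of *Thrsp* was not called without any 1 of *Glis3*-Pax8Cre(ND) replicate 1 and *Glis3*-Pax8Cre(LID) replicates 1 and 4 (log2 fold changes from -1.06 to -0.91, adjusted p from 0.0523 to 0.0617), and that of *Acss2* not without any 1 of *Glis3*-Pax8Cre(ND) replicates 1 and 2 and *Glis3*-Pax8Cre(LID) replicates 1 and 4 (log2 fold changes from -0.76 to -0.66, adjusted p from 0.0539 to 0.0864). On LID, *Aacs*, which activates acetoacetate (log2 fold change -0.84 ± 0.16, adjusted p = 0.000923), and *G6pdx*, the first enzyme of the pentose phosphate pathway (log2 fold change -0.65 ± 0.084, adjusted p = 3.37e-05), were lower in *Glis3*-Pax8Cre, and *Fads2*, a desaturase of polyunsaturated fatty acids, was 1.51-fold higher (log2 fold change 0.59 ± 0.12, adjusted p = 0.00198). The interaction was 1.26 ± 0.18 (adjusted p = 0.00027) for *Fads2*, 1.29 ± 0.30 (adjusted p = 0.012) for *Agpat2*, an enzyme of phosphatidate synthesis, 1.51 ± 0.39 (adjusted p = 0.0195) for *Dgat2* and 1.47 ± 0.45 (adjusted p = 0.0487) for *Thrsp*, of which *Fads2* was kept without WT(ND) replicates 2 and 4. With the adipocyte score it was 0.43 for *Dgat2* (adjusted p = 0.664), 0.34 for *Agpat2* (adjusted p = 0.571) and 0.01 for *Thrsp* (adjusted p = 0.993). That of *Thrsp* was also not called without any 1 of WT(ND) replicates 2 and 4, *Glis3*-Pax8Cre(ND) replicates 2, 3 and 4, WT(LID) replicates 2, 3 and 4 and *Glis3*-Pax8Cre(LID) replicates 1, 2 and 3 (log2 fold changes from 1.15 to 1.54, adjusted p from 0.0657 to 0.104).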

How the data were processed

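Whole thyroid RNA of 16 mice, 4 per group, was sequenced, and the authors deposited 1 table of read counts per gene. Per the submitters' processing notes and the methods, reads were aligned with STAR 2.5 to mm10 and counted by featureCounts 1.5.0-p1 without regard to strand, so reads of overlapping genes on opposite strands cannot be told apart. Which of 2 instruments sequenced each library is not given in the sources used here. The deposited counts were tested with edgeR 4.0.16 in R 4.3.3 (TMM scaling, filterByExpr, robust quasi-likelihood test, 4 group means) with Benjamini-Hochberg adjustment over 16630 genes, and the interaction was a contrast of the same fit. The study's own tool, DESeq2 (1.42.0 here), was an alternative. CPM used TMM-scaled totals of 13892352 to 461077969 counts, so precision differs between mice, and no pair of libraries in a group agreed within sampling noise. Per-length levels used the union of GENCODE exons on GRCm38. Steps were tested on simulated data.

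The members and lists were chosen with earlier results of these data known. Per-mouse values are given for *Srebf1*, *Srebf2*, *Scap* and *Insig1* and, per comparison, for up to 5 called members with the largest log2 fold change, without overlap in the pairwise comparisons. Other called members have fold changes, and up to 5 called genes per comparison are named from the lists of other pathway genes. Same-numbered mice deviated together in *Glis3*-Pax8Cre(LID) and *Glis3*-Pax8Cre(ND) alone (r from 0.212 to 0.648 over genes), so the fit with the replicate block is given there where it changes a call. Other alternatives were another normalization, filter, threshold, sample set or covariate, and leaving out each mouse. The adipocyte and macrophage scores used as covariates were the mean log2 CPM (prior count 2) of each list of 7 markers.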

Additional observations from a re-analysis of the deposited data

Results flagged for a closer look

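Of 136 groups of 4 mice, 34 genes in 4 groups each, 10 held a mouse whose gap to its nearest neighbour was above Dixon's 95% critical value for 4 samples, and chance alone gives this in about 1 in 20 groups. *Idi1* was at 6.22 CPM in WT(ND) replicate 2, above the 4.2 to 4.38 CPM of the other 3 mice. *Idi1* was at 6.19 CPM in *Glis3*-Pax8Cre(ND) replicate 4, above the 4.02 to 4.31 CPM of the other 3 mice. *Nsdhl* was at 19.5 CPM in *Glis3*-Pax8Cre(LID) replicate 3, above the 18.1 to 18.3 CPM of the other 3 mice. *Sc5d* was at 43.5 CPM in WT(ND) replicate 2, above the 36.2 to 37.3 CPM of the other 3 mice. *Sc5d* was at 33.5 CPM in *Glis3*-Pax8Cre(LID) replicate 2, below the 37.4 to 37.7 CPM of the other 3 mice. *Dhcr7* was at 18.9 CPM in *Glis3*-Pax8Cre(ND) replicate 4, above the 6.84 to 8.54 CPM of the other 3 mice. *Srebf2* was at 107 CPM in *Glis3*-Pax8Cre(ND) replicate 4, above the 86.9 to 88.7 CPM of the other 3 mice. *Abcg1* was at 42.2 CPM in *Glis3*-Pax8Cre(ND) replicate 4, above the 10.7 to 13.7 CPM of the other 3 mice. *Scd2* was at 1197 CPM in *Glis3*-Pax8Cre(LID) replicate 2, below the 1573 to 1622 CPM of the other 3 mice. *Me1* was at 191 CPM in *Glis3*-Pax8Cre(LID) replicate 4, below the other 3 mice, the lowest of which was at 232 CPM. *Glis3*-Pax8Cre(ND) replicate 4, the mouse with high thymocyte markers, held 4 of the 10 values.

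The response to LID was called different between the genotypes for 11 of the 34 genes by the interaction term of edgeR's fit. Of these 10 were above 0 and 1 below, where 4.43% and 7.41% of all genes were called. With a score of adipocyte markers in the fit 3 of the 11, *Scap*, *Scd2* and *Srebf1*, were called. On the log2 scale the interaction was 1.16 for *Acat2*, 0.865 for *Lss*, 1.06 for *Srebf1*, 1.21 for *Scap*, 1.5 for *Insig1*, -1.18 for *Stard4*, 0.761 for *Acly*, 1.16 for *Acaca*, 1.39 for *Fasn*, 1.61 for *Elovl6* and 1.12 for *Scd2*.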

How the results depend on the processing

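The 102 named results and the counts of called members were recomputed with another normalization (RLE, library size alone, or *Tg* left out), no filter, 10 counts in every mouse, DESeq2, a stricter threshold, a replicate block, the 8 mice of a comparison alone, adipocyte or macrophage scores as covariates and each mouse left out. Leaving out WT(ND) replicates 2 and 4 together was chosen after seeing the data. With 10 counts in every mouse and DESeq2 no called gene lost its call. Direction was kept in all fits for all 102 except *Acat2* (0.0692, adjusted p = 0.757) and *Insig1* (0.135, adjusted p = 0.645) with LID in WT, which turned with the adipocyte score, and that score differs between the groups, as does the macrophage score. At an adjusted p under 0.01 with a fold over 2, the counts fell from 12 higher and 9 lower to 1 and 4 with LID in WT, from 8 and 4 to 3 and 2 on LID between genotypes, from 2 and 12 to 0 and 3 on ND, from 14 and 1 to 5 and 0 with LID in *Glis3*-Pax8Cre, and from 10 to 6 in the interaction. With the adipocyte score they were 7 and 2 with LID in WT, 0 lower on ND, 2 lower with LID in *Glis3*-Pax8Cre, and 3 above and 0 below in the interaction, where 2.34% of all genes were lower on ND and 0.71% above 0. With the macrophage score 0 were higher and 0 lower on ND, 0 lower with LID in *Glis3*-Pax8Cre, and 6 above 0 in the interaction, but over all genes too it left 18 higher and 3 lower on ND and 333 above 0, against 1714, 1538 and 737 without a score. Without WT(ND) replicates 2 and 4, 4 were lower with LID in WT, 1 higher and 1 lower on ND, and 6 above 0 in the interaction, while calls over all genes fell to 511 higher, 479 lower and 326. With no filter 0 were lower with LID in *Glis3*-Pax8Cre, and with DESeq2 2 were below 0 in the interaction. Library size alone moved the median of all genes to -0.185 with LID in WT, 0.158 on LID and 0.143 on ND between genotypes, and -0.166 with LID in *Glis3*-Pax8Cre, and turned the split in WT from 12 higher and 9 lower to 9 and 12. Over all genes the split in WT under this scaling was 2434 higher and 5203 lower.

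Leaving out 1 mouse gave 11 to 14 higher and 4 to 10 lower with LID in WT (4 without WT(ND) replicate 4 and 5 without WT(LID) replicate 3), 7 to 8 higher and 3 to 7 lower on LID between genotypes (7 without *Glis3*-Pax8Cre(ND) replicate 4), 2 higher and 10 to 13 lower on ND, 12 to 15 higher and 0 to 1 lower with LID in *Glis3*-Pax8Cre, and 8 to 11 above and 1 below in the interaction. With the replicate block over 16 mice 0 genes were lower with LID in *Glis3*-Pax8Cre, and in the 8 mice of each comparison it gave 1 higher and 3 lower on ND and 2 lower with LID in *Glis3*-Pax8Cre, while the other counts stayed within 1.5 times. Same-numbered mice did not deviate together elsewhere (r from -0.521 to 0.0974 on LID, -0.367 to -0.0269 on ND and -0.168 to 0.14 in WT), where numbers only name mice. The causes of these shifts were not tested. Depth limits the shallowest library, where 3 counts are 0.216 CPM, and with 4 mice a group a call missed says little about its absence.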
